A study of Mus musculus with 2 samples.

Results

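The genes described here encode the enzymes that make, activate and store polyunsaturated fatty acids around ACSL4, together with the stearoyl-CoA desaturases that make the competing monounsaturated ones. They were listed by gene name, but earlier results of these data were known when the genes and the fold limits were chosen. Shares of all genes below are thus given for scale and not as a test. The 10 genes are Acsl1, Acsl3, Acsl4, Acsl5, Lpcat3, Fads1, Fads2, Elovl5, Scd1 and Scd2. All 10 had a value among 10982 protein-coding genes, all 10 reached 1 FPKM in the higher library, and 9 reached 5 FPKM. FPKM is a fragment count divided by transcript length and by sequencing depth, so levels of different genes can be set side by side.

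Fatty acids enter phospholipids only after an acyl-CoA synthetase has joined them to coenzyme A, and an acyltransferase then places them on a lysophospholipid. Polyunsaturated chains are built from dietary linoleic and linolenic acid by alternating desaturation and elongation, and the carbons between their double bonds are where iron-driven lipid peroxidation starts. ACSL4, which prefers arachidonic and adrenic acid, and LPCAT3, which places such chains on phospholipids, are known as promoters of ferroptosis, the form of cell death that such peroxidation causes.

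RNA was sequenced from cultures labelled as mouse neonatal cardiomyocytes, heart muscle cells of the newborn mouse, in 2 libraries. The first came from cells in which the piRNA FERPIR, a small RNA of the PIWI-bound class, was knocked down by an antagomir, a modified antisense oligonucleotide introduced by transfection. The second came from cells given a negative control. A separate treatment label reads PBS for both, and mouse strain, exact age and the number of animals or cultures behind a library were not stated in the labels. Each group had 1 library, which allows neither a test nor a replicate spread, so every difference below describes these 2 libraries, and whether neighbouring levels differ beyond the spread between cultures is not known.

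Of the 10 genes, 9 had lower FPKM in the antagomir library, beside 54.0% of the 10201 genes that reached 1 FPKM in at least 1 library. The log2 ratio, log2 of (antagomir FPKM + 1) over (control FPKM + 1), understates differences of low genes, and folds below are on this scale. On it 2 of the 10, Acsl4 and Fads1, were at least 2-fold lower, beside 3.79% of all genes. A further 3, Lpcat3, Elovl5 and Acsl3, were at least 1.5-fold lower, which made 5 of 10 beside 13.4% of all genes. None of the 10 was at least 1.5-fold higher, beside 10.8% of all genes. The median log2 ratio of the 10 genes was -0.58 and that of all genes -0.05. Summed over the 10 genes the level was 359 FPKM in the antagomir library and 527 FPKM in the control library, or 0.115% and 0.178% of all FPKM listed.

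**Figure D1:**
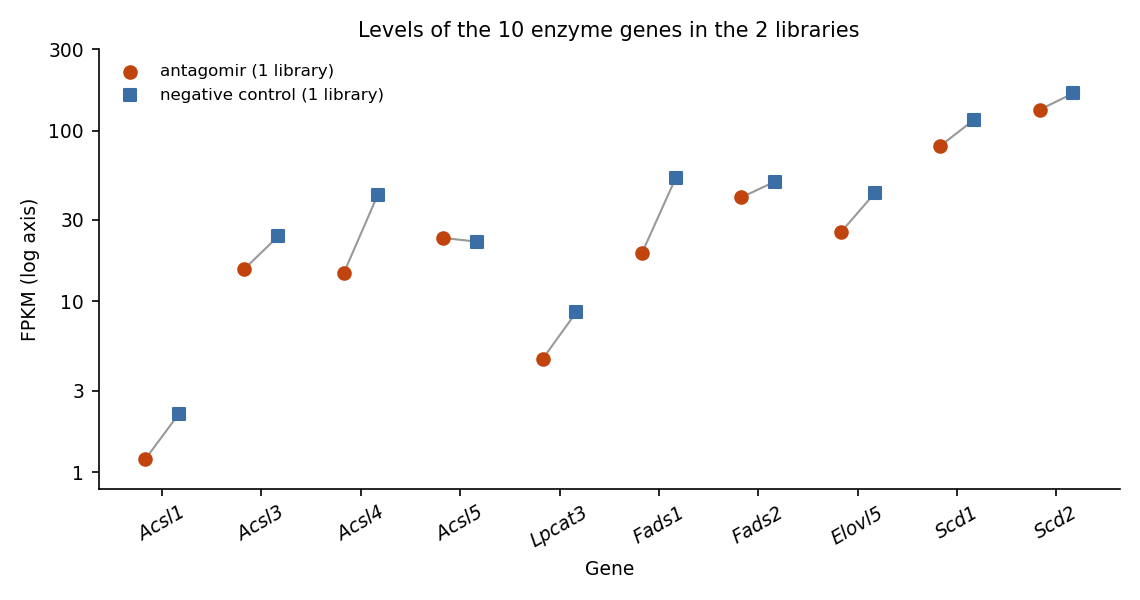
Level of each of the 10 genes in FPKM (log axis) in the antagomir library (circles, left) and the negative control library (squares, right), 1 library each, with a line joining the 2 values of a gene. The line climbs towards the control for 9 genes and runs almost level for Acsl5, with 23.6 FPKM in the antagomir and 22.4 FPKM in the control library.

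The stearoyl-CoA desaturases stood highest. In the antagomir library the order of levels was Scd2, Scd1, Fads2, Elovl5, Acsl5, Fads1, Acsl3, Acsl4, Lpcat3 and Acsl1. In the control library it was Scd2, Scd1, Fads1, Fads2, Elovl5, Acsl4, Acsl3, Acsl5, Lpcat3 and Acsl1. Fads1 thus stood at position 6 in the antagomir and 3 in the control library, Acsl4 at 8 and 6, and Acsl5 at 5 and 8, while the top 2 and the bottom 2 genes were the same.

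Among the acyl-CoA synthetases, Acsl4 (chromosome X, 142317993 to 142390535, GRCm38, minus strand) had 14.7 FPKM in the antagomir library and 41.9 FPKM in the control library, 2.73-fold lower at a log2 ratio of -1.45. Of all genes 1.15% had a lower log2 ratio. Acsl3 (chromosome 1, 78657825 to 78707743), an enzyme of the endoplasmic reticulum and lipid droplets, had 15.5 FPKM in the antagomir library and 24.1 FPKM in the control library, a log2 ratio of -0.60. That value was -0.56 after centring on the median of all genes and -0.49 once a fitted trend in transcript length and GC content was taken out, both short of 1.5-fold. Acsl1 (chromosome 8, 46471037 to 46536051), known as the main long-chain synthetase of the adult heart, was low, with 1.19 FPKM in the antagomir library and 2.20 FPKM in the control library. At such levels the added 1 FPKM matters: its log2 ratio was -0.55 as computed here and -0.83 with 0.1 FPKM added instead. Acsl5 (chromosome 19, 55251938 to 55297720), a synthetase of mitochondria and the endoplasmic reticulum, had 23.6 FPKM in the antagomir library and 22.4 FPKM in the control library, at a log2 ratio of 0.07 that was -0.01 as TPM. It was the single member whose level was not lower in the antagomir library.

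The mix of synthetases therefore differed between the libraries. Shares within a family do not depend on the library total. Acsl4 made up 26.7% of the summed FPKM of the 4 genes in the antagomir library and 46.3% in the control library, a difference of -19.5 percentage points. Acsl5 made up 42.8% in the antagomir library and 24.7% in the control library, Acsl3 28.2% and 26.6%, and Acsl1 2.16% and 2.42%. The sum itself was 55.0 FPKM in the antagomir library and 90.6 FPKM in the control library. Acsl4 stood at 0.624 times the level of Acsl5 in the antagomir library and at 1.87 times in the control library. Relative to Acsl3, Acsl4 stood at 0.947 times in the antagomir library and 1.74 times in the control library.

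**Figure D2:**
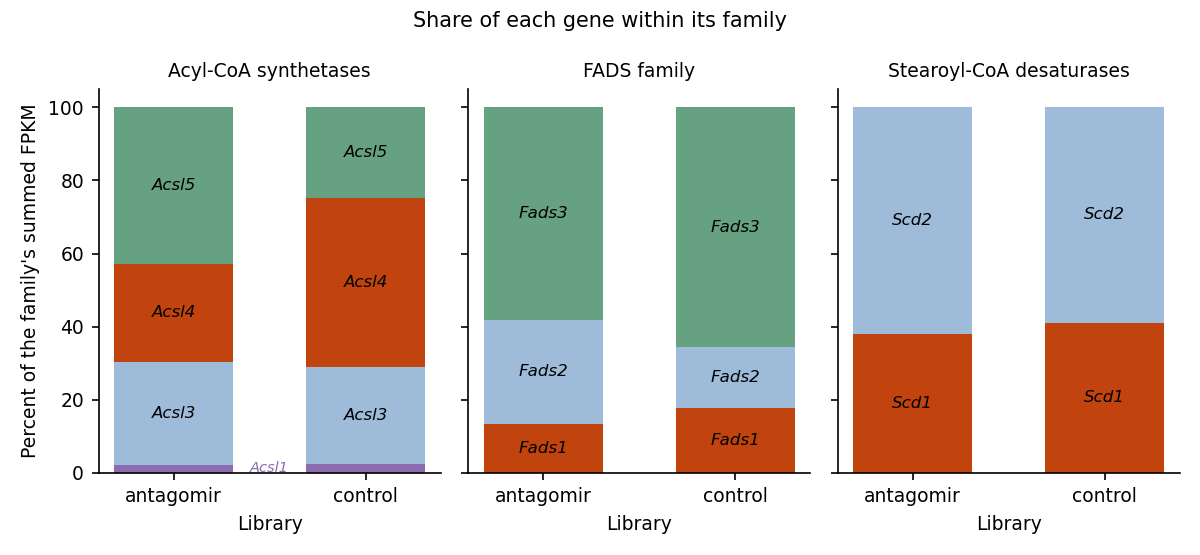
Share of each gene in the summed FPKM of its family (percent), antagomir bar left and control bar right in each panel, 1 library per bar. The thin strip at the foot of the first panel is Acsl1; Acsl4 takes 26.7% in the antagomir and 46.3% in the control bar, whereas Scd1 takes 38.0% and 41.1%.

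Lpcat3 (chromosome 6, 124663027 to 124704418), which loads arachidonic and linoleic acid on lysophospholipids, had 4.61 FPKM in the antagomir library and 8.67 FPKM in the control library. It was 1.73-fold lower, with a log2 ratio of -0.79. Its level was below that of Acsl4 in both libraries, with 3.19 times as much Acsl4 in the antagomir library and 4.83 times in the control library.

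The front-end desaturases, which insert double bonds between an existing one and the carboxyl end, parted from each other. Fads1 (chromosome 19, 10182888 to 10196870), the desaturase that completes arachidonic acid, had 19.2 FPKM in the antagomir library and 53.0 FPKM in the control library. It was 2.67-fold lower at a log2 ratio of -1.42, and 1.36% of all genes had a lower one. Fads2 (chromosome 19, 10064164 to 10101503, minus strand), the desaturase of the first step, had 40.7 FPKM in the antagomir library and 50.4 FPKM in the control library, a log2 ratio of -0.30. The level of Fads1 was thus 0.472 times that of Fads2 in the antagomir library and 1.05 times in the control library. Between these steps Elovl5 (chromosome 9, 77917364 to 77984519) adds carbon units to the chain. Elovl5 had 25.4 FPKM in the antagomir library and 43.0 FPKM in the control library, 1.67-fold lower at a log2 ratio of -0.74.

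Fads3, which is no member but lies beside Fads2 on chromosome 19 (10041548 to 10059671) and acts on sphingoid bases, had 83.2 FPKM in the antagomir library and 196 FPKM in the control library, 2.35-fold lower. It was the most abundant of the 3 FADS genes in both libraries. The outer genes of this cluster, Fads1 and Fads3, were thus each more than 2-fold lower, and Fads2 between them was not.

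The stearoyl-CoA desaturases place the first double bond in saturated chains, which gives oleic and palmitoleic acid. Scd1 (chromosome 19, 44394451 to 44407709, minus strand) had 81.4 FPKM in the antagomir library and 116 FPKM in the control library, a log2 ratio of -0.50. Scd2 (chromosome 19, 44293676 to 44306864), the isoform known for its role in the newborn mouse, had 133 FPKM in the antagomir library and 166 FPKM in the control library, a log2 ratio of -0.32. In FPKM these were differences of -34.3 and -33.0, close to the -33.8 of Fads1, from much higher levels. Their mix was close in both libraries: Scd1 made up 38.0% of the pair in the antagomir library and 41.1% in the control library.

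**Figure D3:**
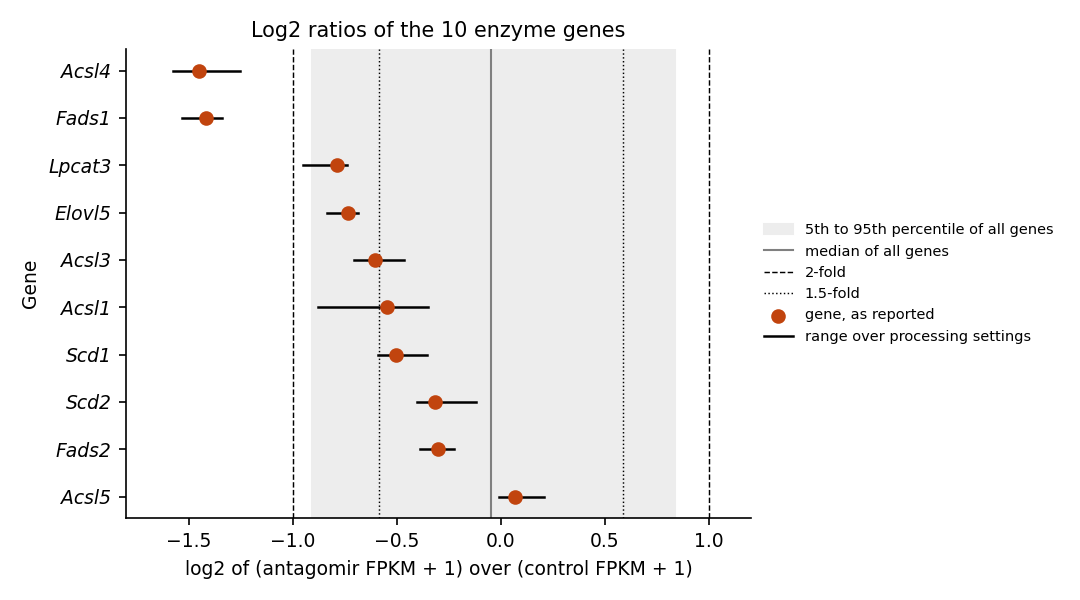
Log2 ratio of antagomir over control for each gene (points), with its range over all processing settings (black bars) and the middle 90% of all genes between the 5th and 95th percentile (grey band, -0.91 to 0.83). Acsl4 and Fads1 lie below the band and beyond the 2-fold line in every setting, and the bar of Acsl5 crosses 0.

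Transcript length moved with the log2 ratio across all genes. Spearman's rho between the length of the longest annotated transcript and the log2 ratio was -0.30 across 10201 genes, which share the same 2 libraries. In 5 groups of equal size by length, the median log2 ratio was 0.26 for the shortest transcripts and -0.20 for the longest. Of the 10 genes, 3 were in the longest group, 3 in the next, 2 in the middle one and 2 in the second shortest, and their median length was 4096.5 nucleotides against 3314.5 for all genes. Set against the median of its own length group, Acsl4 was 1.25 lower on the log2 scale, Fads1 1.34 lower, Lpcat3 0.80 lower and Elovl5 0.75 lower. Scd2, with a 5455-nucleotide transcript, was 0.12 lower than its group and Acsl5 0.21 higher. With the trend over length and GC content removed, the median of the 10 genes was -0.43, Acsl4 was at -1.32 and Fads1 at -1.36, and 9 of 10 were below 0.

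**Figure D4:**
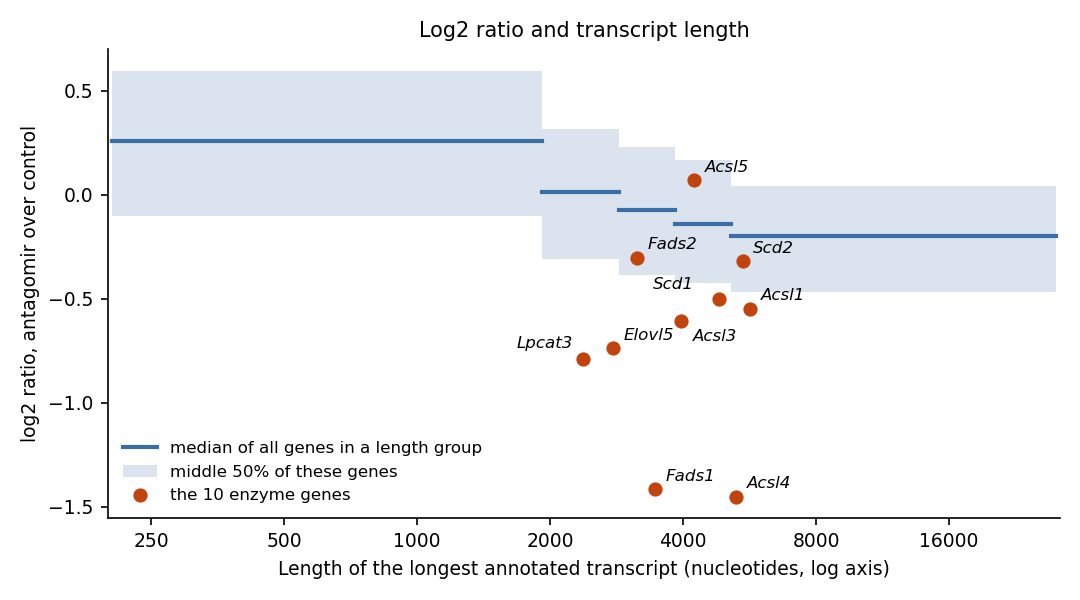
Log2 ratio of antagomir over control against the length of the longest annotated transcript (nucleotides, log axis) for the 10 genes (points), with the median (lines) and the middle 50% (shading) of all genes in each of 5 length groups. Acsl4 and Fads1 lie far below the shading of their groups, Scd2 and Fads2 lie inside it, and Acsl5 lies above its line.

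Exons of 5 of the 10 genes overlap those of another gene, and since the strand setting of the counting is not stated, reads from such pairs cannot be told apart. Acsl4, Fads1, Fads2, Elovl5 and Scd1 have no such overlap. Acsl5 overlaps Zdhhc6 on the opposite strand, which had 3.88 FPKM in the antagomir library and 7.14 FPKM in the control library. Lpcat3 overlaps Emg1, with 27.3 FPKM in the antagomir library and 22.7 FPKM in the control library. Acsl3 overlaps Utp14b on its own strand, with 0.49 FPKM in the antagomir library and 0.85 FPKM in the control library. Acsl1 and Scd2 overlap genes without a value here. Without the 5 overlapping genes, 2 genes were at least 2-fold lower and 3 at least 1.5-fold lower.

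The sequence just before a gene's start, where transcription factors bind, was at hand for 7 of the 10 genes in 8 windows of 250 bases from RefSeq on build GRCm38.p6; Fads1, Scd1 and Scd2 had no entry. The windows of Acsl4, the member with the lowest log2 ratio, and of Acsl5, the one not lower, are shown, with those of Elovl5 and of the second start of Acsl1 because each holds a motif that no other member window holds. Each is written 5′ to 3′ on the gene's strand and ends at the base before the start. Capitals mark matches on either strand to the motifs searched. They lie at chrX:142390536-142390785 (minus strand), chr19:55253119-55253368, chr9:77917115-77917364 and chr8:46490716-46490965.
Acsl4: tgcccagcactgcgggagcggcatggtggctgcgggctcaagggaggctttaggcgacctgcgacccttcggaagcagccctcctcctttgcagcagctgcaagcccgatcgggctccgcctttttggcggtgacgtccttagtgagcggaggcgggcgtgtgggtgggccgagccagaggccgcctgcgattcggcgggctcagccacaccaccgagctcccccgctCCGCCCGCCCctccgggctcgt
Acsl5: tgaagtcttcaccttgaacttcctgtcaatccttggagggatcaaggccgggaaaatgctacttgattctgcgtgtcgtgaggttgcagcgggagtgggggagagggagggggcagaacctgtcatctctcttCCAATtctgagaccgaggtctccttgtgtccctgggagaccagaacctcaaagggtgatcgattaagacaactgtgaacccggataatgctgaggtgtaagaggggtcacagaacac
Elovl5: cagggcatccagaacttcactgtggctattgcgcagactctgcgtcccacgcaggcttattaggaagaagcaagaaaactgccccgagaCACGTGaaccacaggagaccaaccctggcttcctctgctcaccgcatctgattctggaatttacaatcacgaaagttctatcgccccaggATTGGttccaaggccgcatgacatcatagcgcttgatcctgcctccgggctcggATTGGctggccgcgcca
Acsl1, second start: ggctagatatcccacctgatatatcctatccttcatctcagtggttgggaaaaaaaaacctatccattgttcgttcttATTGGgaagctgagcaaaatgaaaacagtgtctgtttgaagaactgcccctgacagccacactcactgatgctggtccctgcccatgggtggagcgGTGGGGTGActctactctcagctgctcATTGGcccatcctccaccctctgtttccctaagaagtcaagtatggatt

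The motifs were the sterol regulatory element TCACNCCAC, the CCAAT box CCAAT, the GC box GGGCGG, the E-box CACGTG and the ATF4 type element TGATGNAA, none of which contains another. In the Acsl4 window 2 GC boxes overlap each other, between 22 and 13 bases before the start, and there is no CCAAT box. The Acsl5 window holds 1 CCAAT box, 117 to 113 bases before the start, and no GC box. CCAAT boxes were in 5 of 8 member windows and in 33.8% of all 32851 windows, which belong to 27025 genes, and GC boxes in 5 of 8 and in 32.7%. The 5 member windows with GC boxes had a GC content of 64.8% to 75.6%, where the median of all windows was 52.4%. The part of base composition in these counts was not tested. The E-box was in the Elovl5 window alone among the 8 and in 6.02% of all windows. The sterol regulatory element was in the window of the second Acsl1 start alone among the 8 and in 1.05% of all windows. The ATF4 type element was matched in none of the 8 windows and in 3.45% of all windows. The starts used for Acsl5 and Lpcat3 and the second start of Acsl1 lie inside the loci given for these genes in the deposited data. Their windows, which include the one with the sterol regulatory element, may thus not be those used in these cells. A match is a run of letters and not a measured binding site.

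Related genes came from 9 lists of textbook members without the 10 genes themselves. They gave 105 genes that reached 1 FPKM, of which 9 were at least 2-fold lower and 1 at least 2-fold higher, beside 3.79% and 2.88% of all genes. At 1.5-fold the counts were 22 lower and 4 higher, beside 13.4% and 10.8% of all genes. Their median log2 ratio was -0.17.

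The list of other desaturation and elongation enzymes, with their electron donors, had the lowest median, -0.53 over 15 genes, which was -0.36 with the length and GC trend removed. Of these 15 genes 6 were lower by 1.5-fold or more, 3 of them by 2-fold, and none was higher by 1.5-fold. Each round of elongation needs a condensing enzyme such as ELOVL5, then a reductase, a dehydratase and a second reductase. Hsd17b12, the first reductase, had 26.2 FPKM in the antagomir library and 50.6 FPKM in the control library, 1.90-fold lower. Tecr, the second reductase, had 13.4 FPKM in the antagomir library and 29.4 FPKM in the control library, 2.11-fold lower. The dehydratase genes did not share a direction: Hacd2, which overlaps an antisense gene, had 1.88 FPKM in the antagomir library and 4.34 FPKM in the control library, whereas Hacd1 had 28.0 FPKM in the antagomir library and 19.8 FPKM in the control library. Hacd3 and Hacd4 were lower in the antagomir library, at log2 ratios of -0.17 and -0.42, so Hacd1 alone was higher. Cyb5r1, a flavoprotein that passes electrons from NADH and is known as a source of peroxide in ferroptosis, was the lowest of the list. It had 24.9 FPKM in the antagomir library and 107 FPKM in the control library, 4.17-fold lower. Cyb5r3, the reductase that feeds the desaturases, had 113 FPKM in the antagomir library and 120.1 FPKM in the control library.

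Other acyl-CoA synthetases, 5 genes, had a median of -0.19, with 1 lower and 1 higher by 1.5-fold or more. Slc27a1, a fatty acid transport protein with synthetase activity, had 12.7 FPKM in the antagomir library and 21.4 FPKM in the control library, and Acsbg1 had 10.3 FPKM in the antagomir library and 6.35 FPKM in the control library. Other acyltransferases of glycerophospholipids had a median of 0.03 over 15 genes, a value that lay between -0.18 and 0.08 over the settings. In that list 3 were lower by 1.5-fold or more and none higher. Gpat3, which starts glycerolipid synthesis, had 2.01 FPKM in the antagomir library and 8.01 FPKM in the control library, 3.00-fold lower, with exons that overlap those of other annotated genes. Agpat1, which overlaps Egfl8, had 24.0 FPKM in the antagomir library and 16.7 FPKM in the control library.

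Regulators of lipid genes, the SREBP factors with their processing proteins and the LXR, PPAR and RXR receptors, numbered 13 genes with a median of -0.37. Of these, 3 were at least 1.5-fold lower and 1 was at least 1.5-fold higher. Mbtps1, the protease that makes the first cleavage of SREBP, had 7.01 FPKM in the antagomir library and 14.6 FPKM in the control library, 1.95-fold lower. Rxra, the partner receptor of LXR and PPAR, had 9.77 FPKM in the antagomir library and 5.16 FPKM in the control library, 1.75-fold higher. Srebf1, whose product is known to drive Scd1, Fads1, Fads2 and Elovl5, had 8.06 FPKM in the antagomir library and 9.58 FPKM in the control library, a log2 ratio of -0.22.

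Phospholipases and related hydrolases that release fatty acids numbered 10 genes with a median of -0.47, of which 4 were lower by 1.5-fold or more and none higher. Pnpla2, the lipase that starts the breakdown of triglycerides, had 6.96 FPKM in the antagomir library and 15.9 FPKM in the control library, 2.13-fold lower. Pla2g15, the lysosomal phospholipase, was 2.01-fold lower at 1.01 FPKM in the antagomir library and 3.02 FPKM in the control library. Pla2g16 had 11.2 FPKM in the antagomir library and 7.92 FPKM in the control library.

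Lipid oxidation genes, a list that holds helper proteins as well as enzymes, had a median of 0.16 over 7 genes but a mean of -0.32. Of these, 2 were lower by 1.5-fold or more and none higher, and the median was -0.06 with the length and GC trend removed. Ptgs2, the inducible cyclooxygenase, had 10.2 FPKM in the antagomir library and 44.0 FPKM in the control library. Alox5ap, the helper protein of 5-lipoxygenase, had 8.93 FPKM in the antagomir library and 6.55 FPKM in the control library. Its log2 ratio of 0.40 was 0.16 with that trend removed. Ether lipid synthesis, a second source of oxidisable phospholipids, had a median of 0.18 over 11 genes, -0.16 with a minimum of 5 FPKM, with no member 1.5-fold lower and 1, Selenoi, 1.61-fold higher at 2.97 FPKM in the antagomir library and 1.47 FPKM in the control library. Pex3 had 7.50 FPKM in the antagomir library and 9.99 FPKM in the control library, and Dhrs7b had 20.0 FPKM in the antagomir library and 15.1 FPKM in the control library.

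Triglyceride and lipid droplet genes had a median of -0.12 over 11 genes, with 2 lower by 1.5-fold or more and none higher. One of these was Dgat2, the enzyme of the last step to triglycerides, 2.73-fold lower at 3.17 FPKM in the antagomir library and 10.4 FPKM in the control library. G0s2, an inhibitor of triglyceride breakdown, had 20.7 FPKM in the antagomir library and 14.0 FPKM in the control library. Its log2 ratio of 0.53 was 0.09 with the length and GC trend removed. Genes that bind, split or transfer acyl-CoA had a median of 0.10 over 18 genes, -0.08 with a minimum of 5 FPKM, with 1 lower and 1 higher by 1.5-fold or more. Acot2, a mitochondrial thioesterase, had 16.6 FPKM in the antagomir library and 48.3 FPKM in the control library, 2.80-fold lower. Dbi, which encodes the acyl-CoA binding protein, had 122 FPKM in the antagomir library and 60.2 FPKM in the control library, 2.01-fold higher, but at a log2 ratio of 0.47 with the length and GC trend removed.

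**Figure D5:**
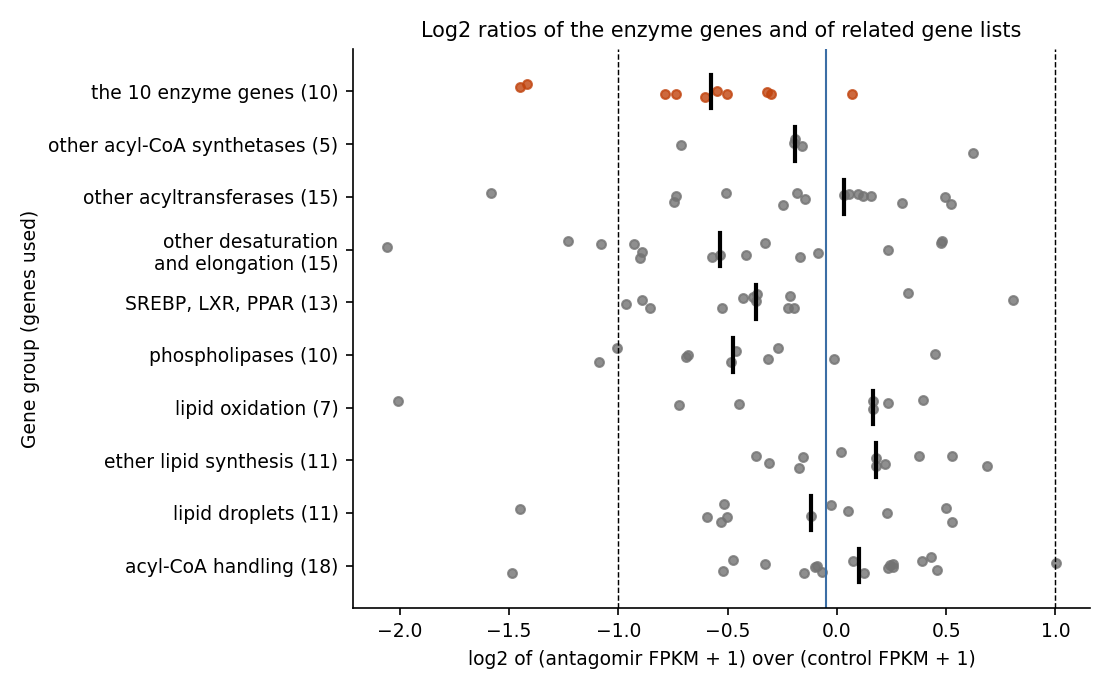
Log2 ratio of antagomir over control for the 10 enzyme genes (top row) and for the genes of the 9 related lists that reached 1 FPKM, with the number of genes in brackets, the median of each group (black bars), the median of all genes (blue line) and the 2-fold limits (dashed). The medians run from -0.58 for the 10 genes and -0.53 for other desaturation and elongation genes to 0.18 for ether lipid synthesis.

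Markers of the cell types such cultures can hold were not equal in the 2 libraries. Of 10 cardiomyocyte markers 2 had a value, and their summed level was 27.1 FPKM in the antagomir library and 5.86 FPKM in the control library. Tnnt2 had 8.19 FPKM in the antagomir library and 1.48 FPKM in the control library, and Myh6 had no value here, which is not read as absence. Of 10 fibroblast markers 6 had a value, with sums of 341 FPKM in the antagomir library and 548 FPKM in the control library. Col3a1 made most of both sums, with 249 and 358 FPKM in the same order, and Col1a1 had 24.2 and 58.5 FPKM. Of the 6, 5 were lower in the antagomir library, whereas Pdgfra had 1.66 FPKM there and 1.19 FPKM in the control library. Of 8 smooth muscle markers 6 had a value, with sums of 1315 FPKM in the antagomir library and 1675 FPKM in the control library. Acta2 made most of both sums, with 845 FPKM in the antagomir library and 1304.5 FPKM in the control library, whereas 4 of the 6, Des, Cnn1, Notch3 and Tagln, had higher FPKM in the antagomir library, and the median log2 ratio of the 6 was 0.39. Of 8 macrophage and 8 adipocyte markers 1 each had a value, none above 5 FPKM, of 6 blood markers 2 had one, and of 8 endothelial markers, Pecam1 among them, none had. Ptprc had no value either. No marker with a value was listed at 0. Fewer cells of a type and less RNA per cell cannot be told apart in such libraries, and the part of cell types in the levels of the 10 genes was not tested.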

How the data were processed

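RNA was measured in 2 libraries, 1 per group, grouped by the sample titles. The authors deposited gene-level FPKM values. Per the submitters' processing notes these came from cutadapt, HISAT2 and StringTie 1.3.3 on GRCm38, and per the labels' protocols from polyadenylated RNA and a KAPA stranded kit. The annotation release and strand setting are not stated there. In each of the 10992 rows the higher FPKM was above 0.5. Rows of 10 symbols were summed, none a member. Read depth is unknown. At the best of 2000 candidate units, 17.3% of low values in the antagomir and 24.4% in the control library lay within 0.05 of whole reads. Unrelated values give 10% at 1 fixed unit, and more at the best of many, so 10% is no reference for these shares. No interval is given.

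The log2 ratio used a pseudocount of 1 FPKM. Genes that reached 1 FPKM in either library entered the counts at 2-fold and 1.5-fold limits. Lengths, GC content and exon overlaps came from GENCODE M21 (GRCm38), in which 10982 rows were found, and a quadratic trend in log2 length and GC was fitted by least squares. Python 3.11.15, numpy 2.4.6, pandas 2.3.3 and, for figures, matplotlib 3.10.9 were used, and the scripts were tested on simulated data. The members, lists and limits were chosen with earlier results of these data known. The text names all members, in each list the ends among genes reaching 5 FPKM and any gene with a 2-fold difference, and 5 markers. These 5 are Myh6, Tnnt2, Col1a1, Pecam1 and Ptprc, and the other markers named were not part of that plan. Chosen after their values were seen are Srebf1, Selenoi, Hsd17b12, Hacd1 (also an end of its list), Hacd2, Hacd3, Hacd4, Cyb5r3, Fads3 as a neighbour, the overlapping and neighbouring genes and the motifs. Alternatives were other pseudocounts, minimums and scalings, removal of the length and GC trend, and leaving out overlapping genes.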

Additional observations from a re-analysis of the deposited data

How the results depend on the processing

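Of the 10 genes, Acsl4 and Fads1 were at least 2-fold lower in all 11 settings computed for each, with log2 ratios from -1.57 to -1.25 and from -1.53 to -1.34. These 11 include the reported setting. The FPKM minimums and the choice among rows of a symbol cannot change a member's own ratio, so they add no check of it. The count of members at least 2-fold lower was 2 in every setting, beside 3.34% (centred on the median) to 6.78% (TPM) of all genes. The count at least 1.5-fold lower was 5 as reported and ran from 3 without genes with overlapping exons, where fewer members remain, to 7 as TPM, beside 13.8% and 20% of all genes in those settings. The median of the members, -0.58, lies just inside the 1.5-fold limit. It was beyond that limit at -0.69 and -0.70 with pseudocounts of 0.1 and 0.01, -0.76 as TPM, -0.61 when 97 genes of mitochondrial DNA, hemoglobin and cytosolic ribosomes were left out of the library totals, -0.60 with a minimum of 5 FPKM and -0.74 without overlapping genes. The median of the members was weaker, at -0.53, after centring on the median of all genes and at -0.43 with the length and GC trend removed. In each of these settings 4 members were at least 1.5-fold lower. The median of all genes also moved with the setting, from -0.05 as reported to -0.13 as TPM. The difference in the Acsl4 share of the synthetases ran from -19.5 to -18.7 points. Among single genes, Acsl1 passed 1.5-fold with pseudocounts of 0.1 (-0.83) and 0.01 (-0.88) and as TPM (-0.81), and Scd1 as TPM (-0.59). Acsl6 had no value, so the shares with it were not run. The settings on length groups and on shares with the trend removed were chosen after seeing the data. No paired analysis was possible because each group has 1 library. Depth is unknown, and no difference has a replicate check.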

Other observations

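Other genes within 100 kb of a member, chosen after their values were seen, gave 21 genes that reached 1 FPKM, with a median log2 ratio of -0.13, with 6 at least 1.5-fold lower and 1 at least 1.5-fold higher, beside 13.4% and 10.8% of all genes. Around Lpcat3, the log2 ratio was -0.9999 for Eno2, -0.69 for C1s2, -0.61 for Atn1 and -0.60 for C1rb, each at least 1.5-fold lower. The other genes there were Phb2 at -0.25, Grcc10 at 0.19, Emg1 at 0.26 and Ptpn6 at 0.48. In the stretch of chromosome 19 around the FADS genes, where Fads1 and Fads3 were more than 2-fold lower, none of the other neighbours was. Fth1, the ferritin heavy chain gene, had 3120.2 FPKM in the antagomir library and 3132 FPKM in the control library. Tmem258 had 23.8 FPKM in the antagomir library and 26.1 FPKM in the control library. Fen1, a flap endonuclease of DNA replication, had 45.6 FPKM in the antagomir library and 24.7 FPKM in the control library, a log2 ratio of 0.86. Its locus overlaps that of Tmem258 on the opposite strand. With the strand setting not stated, reads from the shared stretch cannot be told apart.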
